A study of Mus musculus with 5 samples.

Results

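The genes described here are 33 genes of glucose use and of muscle energy supply: glycolytic enzymes, lactate dehydrogenases, glucose transporters, enzymes of glycogen storage and breakdown, cytosolic creatine kinases, myoglobin and 4 regulators. They were chosen by name, and all 33 of 33 were found on the array, as 51 probes among 55681. RNA came from muscle cells of mdx mice (genotype DMD/MDX, strain C57BL/6), which lack dystrophin as patients with Duchenne muscular dystrophy do; all groups share this genotype. Treatment lasted 45 days, with intraperitoneal injections of vehicle or of TSA at 0.6 mg/kg; TSA is trichostatin A, which blocks histone deacetylases. Cells were sorted by flow cytometry on CD34 and α7-integrin. The groups were interstitial cells positive for Sca1 (Sca1+) after TSA, on 2 arrays, muscle stem cells negative for Sca1 (MuSC) after vehicle, on 1 array, and Sca1+ cells after vehicle, on 2 arrays. Whether replicates came from separate animals or from pools is not stated in the labels, so the p-values cover the spread between arrays alone, and that spread may be technical.

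Glycolysis splits glucose into pyruvate and yields ATP without oxygen. In skeletal muscle several of its steps are run mainly by particular isoforms: Pfkm (phosphofructokinase), Pgam2 (phosphoglycerate mutase) and Eno3 (enolase). Beside them stand Pygm (glycogen phosphorylase) and Ckm (creatine kinase). Their common partners are Pfkl and Pfkp, Pgam1, Eno1, Pygl and Ckb. Creatine kinase holds ATP steady by moving phosphate to and from creatine, and Slc2a4 encodes GLUT4, the glucose transporter that insulin brings to the surface of muscle and fat cells.

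Markers of the gates and of muscle stem cells were read first as a check of the labels. Pax7, the transcription factor of muscle stem cells, had a signal of 11.2 relative to the array's 75th percentile in MuSC, against 0.0732 and 0.0440 in Sca1+ vehicle cells. Ly6a, which encodes Sca1, was at 2.75 in MuSC, against 87.9 and 96.6 in Sca1+ vehicle cells. Itga7, the α7-integrin of the sort, was at 130 in MuSC, against 2.55 and 2.13 in Sca1+ vehicle cells. Cd34, the other marker of the sort, was at 22.2 in MuSC, against 204 and 201 in Sca1+ vehicle cells. In Sca1+ TSA cells Pax7 was at 0.503 and 0.448, Ly6a at 59.2 and 52.2, Itga7 at 23.1 and 24.0, and Cd34 at 115 and 132. On each array 58.5% to 66.9% of spots were well above background, and 0 were saturated; the number of arrays limits the precision. All levels below are relative signals of this kind. They are comparable between arrays for 1 probe, and not between probes.

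The first comparison asked which of these genes differed in Sca1+ cells after TSA. Both glucose transporters, the muscle enolase Eno3, the lactate dehydrogenase Ldhb, the muscle creatine kinase Ckm, myoglobin (Mb) and the prolyl hydroxylase Egln3 were higher with TSA than with vehicle. These were 7 of the 33 members (21.2%), beside 2.71% of all 26093 genes tested that were higher and 2.98% that passed in either direction (limma, Benjamini-Hochberg adjusted p under 0.05). No member was lower, beside 0.268% of all genes. At an unadjusted limma p under 0.05 there were 14 members, each with a positive difference, beside 6048 of all 26093 genes tested. The median log2 difference was 0.33 over the members and −0.13 over all genes tested. All 33 passed the filter on dim probes, Ckm, Mb and Egln3 only through Sca1+ TSA cells and MuSC. With no such filter Slc2a4 and Mb were the 2 members that passed, beside 283 of all genes. Without TSA replicate 1 or 2 the member median was 0.25 and 0.28, and without replicate 1 or 2 of vehicle 0.37 and 0.40. With 1 array left in a group, these fits cannot decide which members pass, so the calls rest on both arrays of each group. In whole sorted populations, fewer cells of a type and less RNA per cell cannot be told apart.

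**Figure D1:**
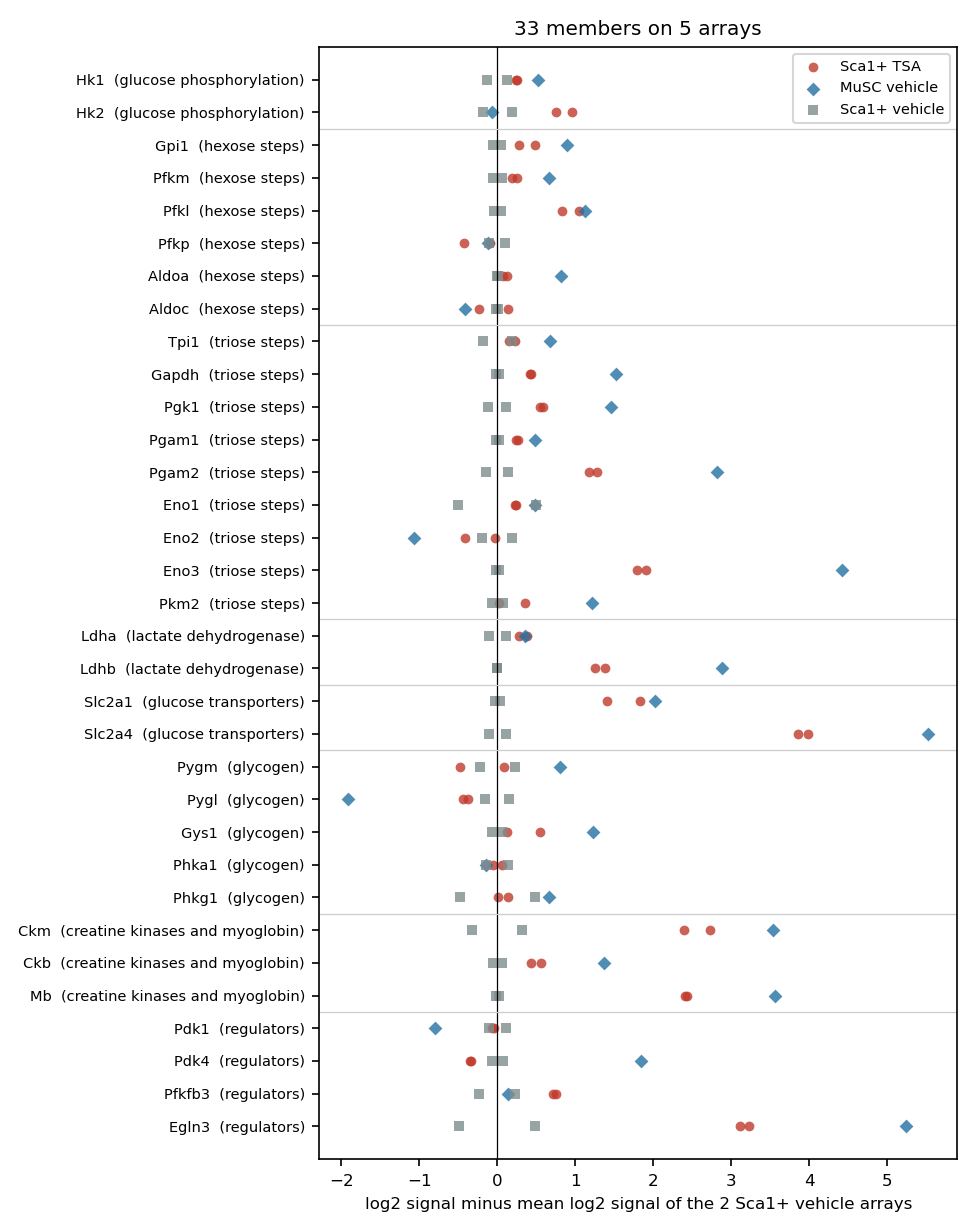
The log2 signal of each of the 33 members on each of the 5 arrays, minus the mean of the 2 Sca1+ vehicle arrays (x axis, log2 units), with genes ordered by role on the y axis. Red circles are Sca1+ TSA, blue diamonds MuSC and grey squares Sca1+ vehicle; the TSA mean lay at 3.92 for Slc2a4, and the 6 hexose-step genes lay between −0.26 and 0.94.

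Slc2a4 had relative signals of 7.10 and 7.73 in Sca1+ TSA cells, 22.5 in MuSC, and 0.531 and 0.454 in Sca1+ vehicle cells. The TSA arrays lay far above both vehicle arrays, a log2 difference of 3.92 ± 0.17 (SE, 2 arrays in each group; limma adjusted p = 0.00438), or 15.1-fold; it was 3.74 on slide 1 and 4.09 on slide 2. Its probe, printed in 10 spots, lies at chr11:69756073-69756132 (mm9, minus strand). Slc2a1, which encodes GLUT1, the transporter of basal glucose uptake in most cells, was at 5.09 and 6.84 in Sca1+ TSA cells, 7.78 in MuSC, and 1.88 and 1.97 in Sca1+ vehicle cells. Its log2 difference for TSA was 1.62 ± 0.21 (limma adjusted p = 0.0408), and its groups did not overlap.

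Glucose is trapped in the cell by hexokinases. Hk2, the isoform of insulin-sensitive tissues, read 0.874 and 1.01 in Sca1+ TSA cells, 0.497 in MuSC, and 0.590 and 0.458 in Sca1+ vehicle cells. The TSA arrays were the highest of the 5, but the log2 difference of 0.86 ± 0.20 did not pass (limma adjusted p = 0.125). Hk1, the isoform found in most tissues, differed by 0.24 ± 0.17.

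None of the 6 members of the hexose steps passed for TSA in limma, a count near the 2.98% of all genes tested that passed. At an unadjusted p under 0.05 there was 1, Pfkl, beside 6048 of all 26093 genes tested. Phosphofructokinase commits sugar to glycolysis, and its muscle gene Pfkm was at 3.82 and 3.97 in Sca1+ TSA cells, 5.29 in MuSC, and 3.47 and 3.21 in Sca1+ vehicle cells. Pfkl, named for the liver, was at 1.20 and 1.04 in Sca1+ TSA cells, 1.27 in MuSC, and 0.599 and 0.565 in Sca1+ vehicle cells. Pfkp, named for platelets, was at 2.78 and 2.21 in Sca1+ TSA cells, 2.73 in MuSC, and 3.18 and 2.76 in Sca1+ vehicle cells. So the muscle gene differed by 0.22 ± 0.15, while Pfkl, at 0.94 ± 0.16, came nearest to the threshold of the 3 (limma adjusted p = 0.0766), and Pfkp arrays overlapped. The isomerase Gpi1 and the aldolases Aldoa and Aldoc had log2 differences of 0.38, 0.10 and −0.05.

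Of the 9 members of the triose steps, Eno3 alone passed for TSA, beside 2.98% of all genes tested. Eno3, the enolase of mature muscle, was at 6.77 and 7.28 in Sca1+ TSA cells, 41.6 in MuSC, and 1.97 and 1.93 in Sca1+ vehicle cells. Its log2 difference was 1.85 ± 0.15 (limma adjusted p = 0.0139), close to the same on slide 1 (1.78) and slide 2 (1.92). The common enolase Eno1 was at 70.3 and 71.3 in Sca1+ TSA cells, 84.0 in MuSC, and 42.6 and 85.0 in Sca1+ vehicle cells: its vehicle arrays differed from each other more than the groups did. Eno2, the enolase of neurons, differed by −0.22 ± 0.23.

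Pgam2, the muscle phosphoglycerate mutase, was at 0.464 and 0.497 in Sca1+ TSA cells, 1.45 in MuSC, and 0.186 and 0.226 in Sca1+ vehicle cells. These groups did not overlap, but the log2 difference of 1.23 ± 0.18 just missed the threshold (limma adjusted p = 0.0529). With slide entered as a replicate block its limma adjusted p was 0.0409. With normexp background correction, described below, it was 0.0394, at a difference of 0.60. Pgam2 passed in 3 of the 8 alternatives that kept every replicate. Its common partner Pgam1 was at 29.1 and 28.7 in Sca1+ TSA cells, 33.9 in MuSC, and 24.6 and 24.0 in Sca1+ vehicle cells, a difference of 0.25 ± 0.14. The other members of these steps, Tpi1, Gapdh, Pgk1 and the pyruvate kinase gene Pkm2, had log2 differences for TSA between 0.19 and 0.57 and did not pass. The array files place the Pgk1 probe on chromosome 3, while the gene lies on chromosome X, so near-identical copies could contribute to its signal. The 7 Gapdh probes ranged in log2 difference from −0.63 to 0.55; the array files place 1 of them on chromosome 8, while the gene lies on chromosome 6, and that probe gave 0.45.

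Lactate dehydrogenase links pyruvate to lactate. Ldhb, the subunit that predominates in heart, was at 6.39 and 6.98 in Sca1+ TSA cells, 19.8 in MuSC, and 2.68 and 2.69 in Sca1+ vehicle cells, with a log2 difference of 1.32 ± 0.15 (limma adjusted p = 0.0316). Ldha, the subunit that predominates in fast muscle, differed by 0.33 ± 0.16 and did not pass (limma adjusted p = 0.301).

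Ckm and Mb were close to background in Sca1+ vehicle cells. Ckm read 0.273 and 0.216 in Sca1+ TSA cells, 0.474 in MuSC, and 0.0512 and 0.0329 in Sca1+ vehicle cells, with 1 vehicle array well above background. Its log2 difference was 2.56 ± 0.28 (limma adjusted p = 0.0295), with both TSA arrays above both vehicle arrays. Mb, which binds oxygen in muscle, was at 0.260 and 0.256 in Sca1+ TSA cells, 0.571 in MuSC, and 0.0489 and 0.0477 in Sca1+ vehicle cells, again with 1 vehicle array well above background. Its log2 difference was 2.42 ± 0.14 (limma adjusted p = 0.00719). With normexp background correction, which adds an offset and draws dim probes together, the difference was 0.33 for Ckm, no longer past the threshold (limma adjusted p = 0.253), and 0.58 for Mb. Ckb, the creatine kinase of brain and many other tissues, was at 8.55 and 7.85 in Sca1+ TSA cells, 15.0 in MuSC, and 6.04 and 5.57 in Sca1+ vehicle cells, and differed by 0.50 ± 0.15 (limma adjusted p = 0.179).

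The probes of the creatine kinases are shown because they read the same stretch of both messages and so bear on whether the isoforms can be told apart. Both span an exon junction, the Ckm probe at chr7:20002222-20004829 (mm9, plus strand) and the Ckb probe at chr12:112908459-112909105 (mm9, minus strand); capitals mark the aligned bases that differ.
Ckm probe: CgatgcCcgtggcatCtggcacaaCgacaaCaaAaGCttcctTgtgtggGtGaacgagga
Ckb probe: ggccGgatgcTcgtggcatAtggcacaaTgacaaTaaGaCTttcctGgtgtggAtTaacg
Over 56 aligned bases, 45 matched (80.4%) and 11 differed, and the longest shared run was 8 bases. This Ckb probe is not the brighter one behind the levels given for Ckb; its log2 difference for TSA was 0.63, against 0.50 by the brighter one.

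Of the 5 glycogen genes, 0 passed for TSA in limma in either direction, a count near the 2.98% of all genes tested that passed. At an unadjusted p under 0.05 there were also 0, beside 6048 of all 26093 genes tested. Pygm, the muscle phosphorylase that frees glucose phosphate from glycogen, was at 3.01 and 2.04 in Sca1+ TSA cells, 4.97 in MuSC, and 3.33 and 2.44 in Sca1+ vehicle cells, so the Sca1+ groups overlapped. Pygl, the liver phosphorylase, was at 6.99 and 6.74 in Sca1+ TSA cells, 2.43 in MuSC, and 10.1 and 8.17 in Sca1+ vehicle cells. It was lower on both TSA arrays than on both vehicle arrays, at −0.41 ± 0.18, without passing (limma adjusted p = 0.263). Gys1, the muscle glycogen synthase, and Phka1 and Phkg1, subunits of the kinase that activates phosphorylase in muscle, had differences of 0.34, 0.00 and 0.07.

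Of the 4 regulators, Egln3 passed for TSA, beside 2.98% of all genes tested. Egln3, a prolyl hydroxylase that marks hypoxia-inducible factor for destruction and is itself induced by low oxygen, was at 0.189 and 0.175 in Sca1+ TSA cells, 0.762 in MuSC, and 0.0145 and 0.0284 in Sca1+ vehicle cells. On neither vehicle array was it well above background. It was at least 4.18-fold higher with TSA (limma adjusted p = 0.0320), a bound that sets its TSA signal against the lowest signal well above background on the vehicle arrays. With the mean of its 2 probes it did not pass (limma adjusted p = 0.0786), nor with normexp (limma adjusted p = 0.286).

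Pfkfb3, which makes the activator of phosphofructokinase, was at 1.60 and 1.64 in Sca1+ TSA cells, 1.08 in MuSC, and 1.15 and 0.834 in Sca1+ vehicle cells. Its difference of 0.73 ± 0.21 did not pass (limma adjusted p = 0.163), and its second probe gave 0.09. The pyruvate dehydrogenase kinases, which inhibit pyruvate dehydrogenase, did not pass either. Pdk4 was at 0.439 and 0.434 in Sca1+ TSA cells, 1.97 in MuSC, and 0.580 and 0.525 in Sca1+ vehicle cells. Pdk1 was at 0.355 and 0.363 in Sca1+ TSA cells, 0.214 in MuSC, and 0.346 and 0.401 in Sca1+ vehicle cells.

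**Figure D2:**
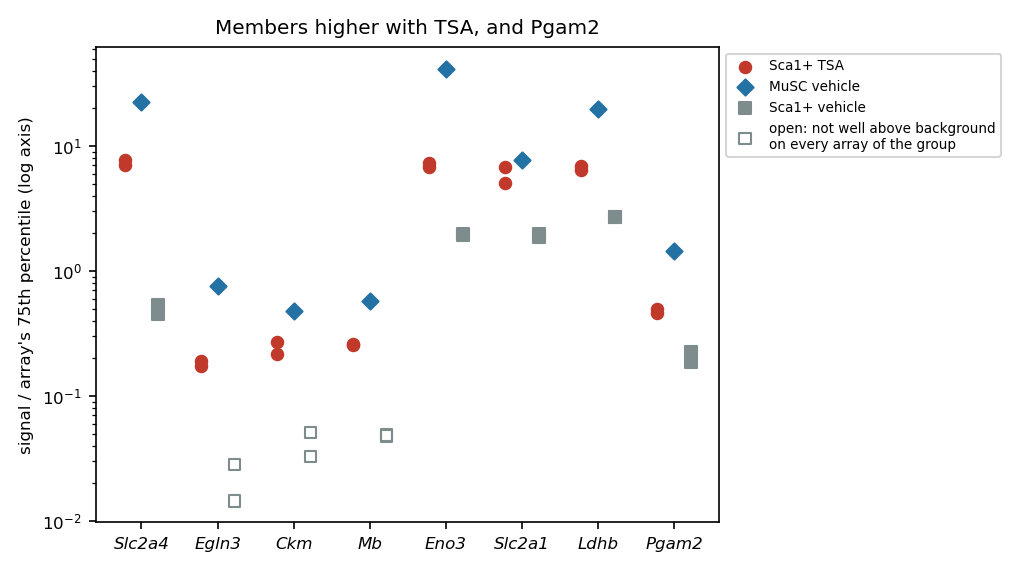
Signal relative to the array's 75th percentile (log y axis) of the 7 members higher with TSA and of Pgam2, 1 point per array, with Sca1+ TSA on the left, MuSC in the middle and Sca1+ vehicle on the right of each gene. Open squares mark Egln3, Ckm and Mb in Sca1+ vehicle cells, where not every array was well above background; the MuSC point is the highest for each of the 8 genes, whose levels are not comparable with each other.

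The second comparison asked how these genes differ between MuSC and Sca1+ vehicle cells. It rests on 1 MuSC array, whose spread is taken to equal that of the Sca1+ arrays, and shares both vehicle arrays with the first. Of the 33 members, 17 were higher in MuSC (51.5%), beside 10.5% of all 26088 genes tested, and 1 was lower, beside 11.7%; 22.2% of all genes passed in either direction. The median log2 difference was 0.82 over the members and −0.04 over all genes tested. The called differences had limma adjusted p between 0.00147 and 0.0452. With only the MuSC and vehicle arrays in the fit, Gpi1, Pfkl, Aldoa, Pkm2 and Gys1 no longer passed. Without replicate 2 of vehicle 11 members were higher, these 5 and Ckb being lost.

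Slc2a4 was higher in MuSC than in Sca1+ vehicle cells by 5.52 ± 0.21 on the log2 scale, or 45.9-fold, and Eno3 by 4.42 ± 0.18, or 21.4-fold. Egln3 was at least 17.5-fold higher. Mb and Ckm were higher by 3.56 ± 0.18 and 3.53 ± 0.35; with normexp these differences were 1.41 and 1.10 and still passed. Ldhb was higher by 2.88 ± 0.18, Pgam2 by 2.82 ± 0.21, Slc2a1 by 2.02 ± 0.25 and Pdk4 by 1.84 ± 0.19.

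Other members were higher in MuSC by smaller amounts. Gapdh, which makes the first NADH of glycolysis, was higher by 1.52 ± 0.18, although its 7 probes ranged from −0.23 to 1.86. Pgk1 and Pkm2, the ATP-forming kinases, were higher by 1.45 and 1.22, Ckb by 1.37, Gys1 by 1.23, Pfkl by 1.13, Gpi1 by 0.89 and Aldoa by 0.82. Pygl was the member that was lower in MuSC, at −1.91 ± 0.22 (limma adjusted p = 0.00883). Eno2 and Pdk1, at −1.06 and −0.80, did not pass (limma adjusted p = 0.0699 and 0.0566), nor did the muscle isoforms Pygm (0.80) and Pfkm (0.66; limma adjusted p = 0.187 and 0.0742).

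The third comparison set Sca1+ TSA cells against MuSC and shares its arrays with the first and second. It rests on 1 MuSC array, taken after vehicle. Cell type and treatment therefore differ at once here, and their parts cannot be told apart. Of the 33 members, 7 were lower in Sca1+ TSA cells, beside 4.83% of all genes tested, and 1 was higher, beside 7.96%; 12.8% of all genes passed in either direction. Those lower were Eno3 (−2.57), Pdk4 (−2.18), Slc2a4 (−1.60), Pgam2 (−1.60), Ldhb (−1.57), Mb (−1.15) and Gapdh (−1.10). Pygl was 2.83-fold higher (limma adjusted p = 0.0245). Slc2a1, at −0.40 ± 0.25, and Pfkl, at −0.19 ± 0.20, did not pass (limma adjusted p = 0.372 and 0.593), which does not show that their levels were alike. The median was −0.50 over the members and −0.13 over all genes tested. Without TSA replicate 1 or 2 the member median was −0.44 and −0.61. Each side then held 1 array, so these fits cannot decide which members pass. With no filter on dim probes 2 members were lower, beside 324 of all genes.

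The muscle isoforms were then read beside their common partners, as log2 of the muscle isoform minus log2 of the partner on each array, and as the change of this difference from the vehicle mean. An exact permutation test of these groups could not give a p under 0.333, and no other test of these changes was run. Ckm moved against Ckb by 2.17 and 1.96 on the Sca1+ TSA arrays and by 2.16 in MuSC, with vehicle arrays at 0.26 and −0.26. With normexp this change turned to −0.25 for TSA and −0.14 for MuSC, so its direction depends on how dim signals are treated. Pgam2 moved against Pgam1 by 0.92 and 1.03 on the TSA arrays and by 2.34 in MuSC, with vehicle arrays at −0.16 and 0.16; with normexp the TSA change was 0.24.

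Eno3 moved against Eno1 by 1.57 and 1.66 on the TSA arrays and by 3.94 in MuSC, but the vehicle arrays themselves lay at 0.51 and −0.51, through Eno1. The change was thus 1.06 on slide 1 and 2.17 on slide 2. Pygm moved against Pygl by 0.46 and −0.05 on the TSA arrays and by 2.71 in MuSC: the sign was not the same on the TSA arrays. Pfkm moved by −0.85 and −0.58 against Pfkl and by 0.28 and 0.67 against Pfkp on the TSA arrays, and by −0.47 and 0.78 in MuSC.

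**Figure D3:**
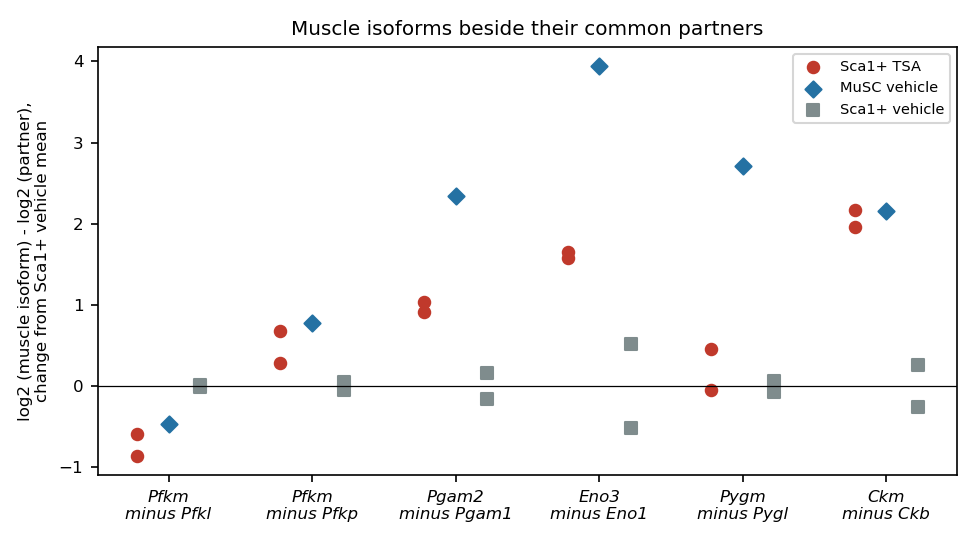
The difference between a muscle isoform and its common partner (log2 units), as its change from the mean of the 2 Sca1+ vehicle arrays (y axis), 1 point per array, with Sca1+ TSA, MuSC and Sca1+ vehicle from left to right in each of 6 pairs. Ckm against Ckb lay near 2 in Sca1+ TSA cells and in MuSC, while Pygm against Pygl lay at 0.46 and −0.05 on the Sca1+ TSA arrays and at 2.71 in MuSC.

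Other genes of the same pathways were read from lists of names, beside 2.71% of all genes tested that were higher and 0.268% lower with TSA, and 10.5% higher and 11.7% lower in MuSC. Of 26 other glycolysis genes tested, 2 were higher with TSA and 0 lower (median 0.12): Gpd1, the cytosolic glycerol phosphate dehydrogenase, by 2.51 ± 0.18, and Ldhd, a lactate dehydrogenase for the D form, at least 3.79-fold. In MuSC 4 were higher and 0 lower (median 0.21), with Gpd1 at 3.40, Ldhd at least 8.07-fold, Tigar at 1.54 and Gpd2, the mitochondrial partner of Gpd1, at 1.05. Most genes of this list passed in neither comparison.

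Of 19 other glycogen genes, 3 were higher with TSA and 0 lower (median 0.11). Pgm5, a relative of phosphoglucomutase that sits at adhesion sites of muscle and has little enzyme activity, was higher by 3.18 ± 0.15, Stbd1, which tethers glycogen to membranes, by 1.69 ± 0.15, and Ppp1r3c, which targets protein phosphatase to glycogen, by 1.11 ± 0.14. In MuSC 5 were higher and 3 lower (median 0.41). The 4 with the largest differences among those higher were Pgm5 (4.43), Stbd1 (3.59), Ppp1r3c (2.09) and Ppp1r3d (1.49). Those lower were Gaa, the lysosomal enzyme that degrades glycogen (−2.11), Ugp2 (−1.27) and Pgm1 (−1.16).

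Of 8 other genes of the phosphagen system and of adenylate balance, 2 were higher with TSA and 0 lower (median 0.23). Gatm, which starts creatine synthesis, was at 1.89 and 1.95 in Sca1+ TSA cells, 9.60 in MuSC, and 0.113 and 0.0907 in Sca1+ vehicle cells, a log2 difference of 4.25 ± 0.18 for TSA (limma adjusted p = 0.00424). Prkaa2, a catalytic subunit of the energy sensor AMPK, was higher by 1.42 ± 0.18. In MuSC 4 were higher and 0 lower (median 0.96), Gatm by 6.57, Prkaa2 by 2.90, Gamt, which completes creatine synthesis, by 1.82, and Prkag3 by 1.61.

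As a further list, 20 other genes of the hypoxia response were read. For TSA 1 was higher and 0 lower (median 0.03): Epas1, which encodes a hypoxia-inducible factor subunit, by 1.72 ± 0.21 (limma adjusted p = 0.0370). In MuSC 4 were higher (20.0%) and 3 lower (15.0%), beside 10.5% and 11.7% of all genes (median −0.23). Epas1 was higher by 2.24, Ndrg1 by 1.94, Ankrd37 by 1.55 and Ddit4 by 1.40, while Adm (−3.30) and the collagen prolyl hydroxylases P4ha2 (−2.72) and P4ha1 (−1.57) were lower.

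**Figure D4:**
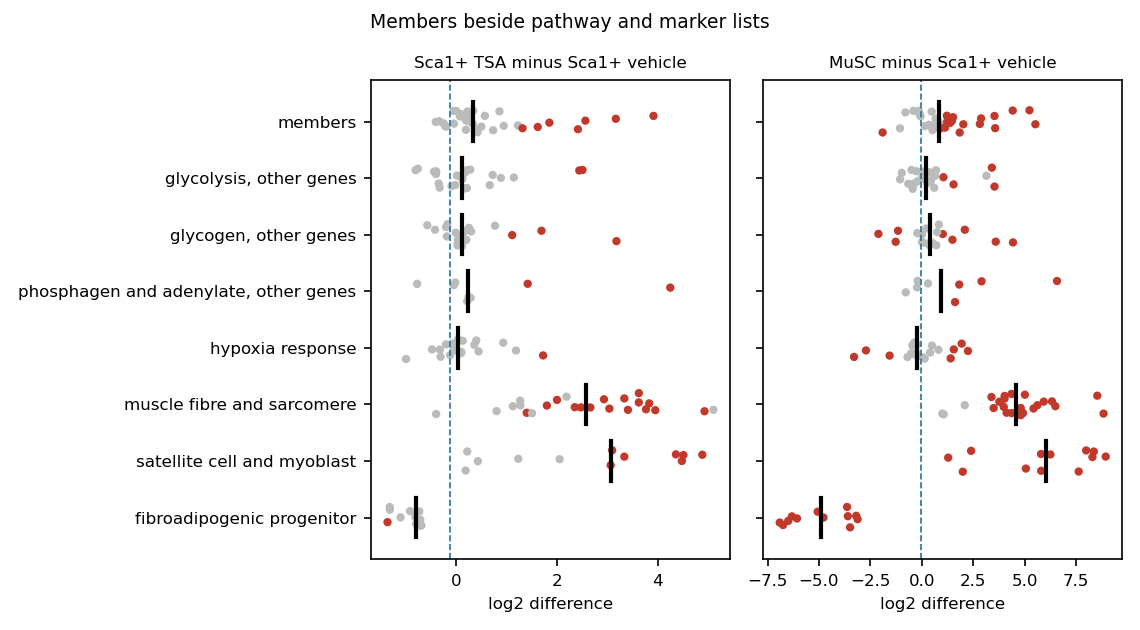
Log2 differences of the members and of lists of other genes (x axis, log2 units), for Sca1+ TSA minus Sca1+ vehicle on the left and MuSC minus Sca1+ vehicle on the right; the x scales differ between the panels. Each point is a gene, red where it passed the threshold, black bars are medians and the dashed line is the median of all genes tested; the medians of the fibre and satellite cell lists lie to the right of the members' median in both panels, while the ranges overlap.

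Markers of muscle cells and of other cell types moved beside the members. Of all genes tested, 2.71% were higher and 0.268% lower with TSA, and 10.5% higher and 11.7% lower in MuSC. Of 24 genes of muscle fibres and the sarcomere, 16 were higher with TSA and 0 lower (median 2.57). The median was 2.41 with 5 genes below background in vehicle cells at their bound. Actn2, also below background there and among the 16, had no bound and kept its difference of 1.80. It was well above background on 1 TSA array. The summed relative signal of the 24 genes was 47.3 and 53.5 in Sca1+ TSA cells, 232 in MuSC, and 7.59 and 7.31 in Sca1+ vehicle cells. In these vehicle cells Myh2, Tnnc1, Ttn, Mylpf, Actn2 and Casq1 were not well above background. Of 12 satellite cell and myoblast genes, 7 were higher and 0 lower (median 3.08, or 2.71 with Calcr at its bound). Myf5 had no bound and kept its difference of 2.05. The sums of this list were 46.4 and 49.4 in Sca1+ TSA cells, 305 in MuSC, and 15.8 and 15.2 in Sca1+ vehicle cells. In Sca1+ vehicle cells Myf5 and Calcr were above background on neither array, and Pax7 on 1. Of 12 genes of fibroadipogenic progenitors, the interstitial cells that express Pdgfra, 0 were higher and 1 lower (median −0.81), with sums of 2283 and 2620 in Sca1+ TSA cells, 387 in MuSC, and 4124 and 5980 in Sca1+ vehicle cells.

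Of 10 smooth muscle and pericyte genes, 7 were higher with TSA and 0 lower, with sums of 623 and 576 in Sca1+ TSA cells, 1584 in MuSC, and 70.9 and 77.7 in Sca1+ vehicle cells. Schwann cell genes (6 of 8), mast cell genes (5 of 6) and erythroid genes (3 of 4) were also higher, and 1 of 8 endothelial and 0 of 7 macrophage genes. In MuSC 9 smooth muscle and pericyte genes were higher and 1 lower, and 8 of 8 Schwann cell genes were higher. Endothelial genes there were 1 higher and 6 lower, erythroid 0 and 2, mast cell 0 and 1, and macrophage 0 and 1. The Schwann cell sum was 35.5 and 36.4 in Sca1+ TSA cells, 115 in MuSC, and 5.76 and 5.09 in Sca1+ vehicle cells. The erythroid sum was 602 and 627 in Sca1+ TSA cells, 15.7 in MuSC, and 39.3 and 41.1 in Sca1+ vehicle cells, and the mast cell sum was 32.4 and 29.8 in Sca1+ TSA cells, 1.27 in MuSC, and 1.82 and 2.17 in Sca1+ vehicle cells. The part of these cell types in the differences of the members was not tested.

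Promoter windows of the members, 300 bases around each start in RefSeq (GRCm38.p6), were searched on both strands; 32 members had a window, 47 windows in all. The first windows are those of muscle isoforms, with CANNTG, the E-box that myogenic factors can bind, and the MEF2 consensus in capitals. The Ckm window lies at chr7:19410844-19411143 (plus strand), that of Pgam2 at chr11:5803747-5804046 (minus strand) and that of Eno3 at chr11:70656926-70657225 (plus strand).
Ckm promoter: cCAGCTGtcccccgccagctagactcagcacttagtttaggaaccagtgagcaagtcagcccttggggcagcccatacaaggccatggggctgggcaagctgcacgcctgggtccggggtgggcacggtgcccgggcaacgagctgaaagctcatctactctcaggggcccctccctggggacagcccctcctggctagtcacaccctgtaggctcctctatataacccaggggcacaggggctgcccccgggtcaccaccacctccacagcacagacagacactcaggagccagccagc
Pgam2 promoter: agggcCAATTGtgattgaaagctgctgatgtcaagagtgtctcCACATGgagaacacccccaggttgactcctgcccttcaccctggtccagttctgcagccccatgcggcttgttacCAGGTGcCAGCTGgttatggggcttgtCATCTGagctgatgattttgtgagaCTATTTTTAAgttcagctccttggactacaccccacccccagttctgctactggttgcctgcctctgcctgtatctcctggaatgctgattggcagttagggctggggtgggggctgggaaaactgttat
Eno3 promoter: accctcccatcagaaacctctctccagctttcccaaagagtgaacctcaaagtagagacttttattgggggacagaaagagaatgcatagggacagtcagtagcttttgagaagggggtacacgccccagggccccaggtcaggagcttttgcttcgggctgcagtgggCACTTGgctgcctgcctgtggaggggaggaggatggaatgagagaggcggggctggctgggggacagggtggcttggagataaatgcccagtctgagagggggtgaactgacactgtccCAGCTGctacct
The Ckm window held 1 E-box, that of Pgam2 held 5 with 1 MEF2 consensus, and that of Eno3 held 2. An E-box is common: 34 of the 47 member windows (72.3%) held one, as did 72.3% of all 32851 windows. The MEF2 consensus was in 2 of the 47 member windows (4.26%), those of Pgam2 and of the common creatine kinase Ckb, beside 3.19% of all windows. It was found for 0 of the 6 members higher with TSA that had a window.

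The other windows are those of Egln3 (chr12:54203825-54204124, minus strand) and Slc2a1 (chr4:119108495-119108794, plus strand). Here capitals mark ACGTG and GCGTG on either strand, which were both read for the hypoxia response element.
Egln3 promoter: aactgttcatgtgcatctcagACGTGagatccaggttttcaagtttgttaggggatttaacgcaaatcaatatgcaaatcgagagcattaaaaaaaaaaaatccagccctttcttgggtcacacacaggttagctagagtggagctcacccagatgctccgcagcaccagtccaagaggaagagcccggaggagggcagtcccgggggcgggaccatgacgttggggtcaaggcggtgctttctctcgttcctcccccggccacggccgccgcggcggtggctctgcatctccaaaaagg
Slc2a1 promoter: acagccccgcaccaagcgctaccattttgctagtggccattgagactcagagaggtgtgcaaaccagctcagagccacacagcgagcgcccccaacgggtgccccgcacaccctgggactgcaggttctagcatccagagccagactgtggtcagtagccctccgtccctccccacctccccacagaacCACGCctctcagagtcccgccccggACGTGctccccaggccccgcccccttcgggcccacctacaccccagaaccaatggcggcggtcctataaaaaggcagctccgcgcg
The Egln3 window held 1 ACGTG, and that of Slc2a1 held 1 ACGTG and 1 GCGTG, which was read on the minus strand. ACGTG was in 18 of the 47 member windows (38.3%), beside 19.6% of all windows, and GCGTG in 24 (51.1%), beside 32.4%. CACGTG, which is an E-box and contains ACGTG, was in 3 member windows, beside 7.15% of all, TATAAA in 3, beside 13.6%, and GGGCGG in 22 (46.8%), beside 35.7%. Base composition also differs between windows, and its part in these shares was not tested. Among the 6 members higher with TSA that had a window, ACGTG was found for 2, Egln3 and Slc2a1, beside 15 of all 32 members with a window. GCGTG was found for 4 of these 6, Ckm, Eno3, Ldhb and Slc2a1, beside 19 of the 32.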

How the data were processed

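RNA of 5 samples of sorted mouse muscle cells was hybridised to 1-colour Agilent arrays on 2 slides, replicate 1 of each group on slide 1. The deposited scanner files hold spot intensities from Agilent Feature Extraction 10.7.3.1, per the file headers. The authors' deposited table holds log2 values with a median of 4.67 in every column, nearly the same order of probes as the scanner values, and a normalization not given in the sources used here; it served as an alternative.

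Values were log2 of the processed signal minus the array's 75th percentile over 59305 non-control spots. Outlier spots, 0.196% to 0.334% of an array, were dropped, and each probe's spots were averaged. Genes were named through RefSeq accessions (26413 probes, and 574 through another probe of the same name; the others kept the design's name). The probe with the highest mean was taken for each gene, and a gene was kept if all arrays of some group showed it well above background, 26093 of 36409, with all 33 members. Positions of probes are those of the array files (mm9).

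The 5 arrays in 3 groups were fitted with limma 3.58.1 under R 4.3.3 (lmFit, then eBayes; two-sided tests, with Benjamini-Hochberg adjustment over all genes tested). Residual degrees of freedom were 2 and prior ones 2.30. The fit was tested on simulated data. Errors beside log2 differences are standard errors. The members, the lists and the rule for naming genes (all members, and up to 4 genes per list and direction past the threshold) were chosen with earlier results of these data known. Alternatives were background correction, quantile normalization, the authors' table, filters, the mean of probes, the slide as a replicate block, only the compared groups, and leaving out each replicate array. Same-numbered TSA and vehicle arrays deviated together with r = 0.348 across genes, and 2 pairs cannot settle whether numbers pair samples. Protein sequences were not used here.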

Additional observations from a re-analysis of the deposited data

How the results depend on the processing

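Normexp background correction was run on the median signals, chosen after seeing the data; the version on mean signals was not run, since these were not in every array file. In each alternative run, the member median stayed above 0 for TSA and for MuSC against vehicle, and below 0 for Sca1+ TSA against MuSC.

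For TSA against vehicle, normexp called 7128 genes, 1253 higher and 5875 lower, against 708 and 70, with a median of −0.25 over all genes; 13 members were higher, with a median of 0.37. Quantile normalization and the authors' deposited table gave member medians of 0.46 and 0.45, and the filter to all 5 arrays and the mean of probes 0.25 each. With the filter to all 5 arrays 5 members were higher, beside 559 of all genes. Without a filter 283 genes and 2 members passed, Slc2a4 and Mb. Leaving out 1 array left 0 to 321 genes, 0 to 3 members higher and medians of 0.25 to 0.40; without TSA replicate 1 or 2, 10 and 9 members had an unadjusted p under 0.05.

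For MuSC against Sca1+ vehicle, 3380 genes passed without a filter and 3428 with only the compared groups. Members lower numbered 2 with normexp, with the filter to all 5 arrays and with the replicate block, where the medians were 0.86, 0.74 and 0.93. Leaving out 1 array left 3428 to 4296 genes, 11 to 12 members higher and medians of 0.82 to 0.98.

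For Sca1+ TSA against MuSC, normexp called 12 members lower (median −0.41), beside 1770 of all genes. Without normexp these counts were 7 and 1261. Without a filter 1307 genes passed, with 0 members higher and 2 lower. Medians were −0.42 with quantile normalization, −0.43 with the authors' deposited table, −0.46 with the filter to all 5 arrays, −0.57 with the mean of probes and −0.59 with the replicate block. Leaving out 1 array left 0 to 2342 genes, 0 to 1 members higher, 0 to 6 lower and medians of −0.61 to −0.44; 497 genes passed without TSA replicate 1 and 0 without TSA replicate 2.

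With the slide as a replicate block, 8 members were higher with TSA, Pgam2 among them (adjusted p = 0.0409). In MuSC Aldoa was lost (adjusted p = 0.0649) and Eno2 passed as lower (0.0222), and Egln3 passed as lower in Sca1+ TSA cells against MuSC (0.0364); the block changed no other call of a member.

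Signs turned in members that did not pass, and in isoform changes without a test. For TSA, normexp gave −0.18 for Phkg1 and −0.25 for Ckm minus Ckb. Quantile normalization gave 0.0083 for Aldoc and 0.00072 for Pdk1, and with the authors' deposited table these were 0.0092 and 0.00074. Leaving out 1 array gave −0.23 to 0.13 for Aldoc, −0.26 to 0.73 for Eno1, −0.48 to 0.081 for Pygm, −0.41 to 0.56 for Phkg1, −0.14 to 0.14 for Phka1, −0.16 to 0.053 for Pdk1 and −0.050 to 0.46 for Pygm minus Pygl. For MuSC, normexp gave −0.14 for Ckm minus Ckb, and the mean of probes 0.13 for Pfkp and −0.021 for Pfkfb3. Leaving out 1 array gave −0.25 to 0.12 for Hk2, −0.017 to 0.98 for Eno1 and −0.086 to 0.37 for Pfkfb3. For Sca1+ TSA against MuSC, Ldha was 0.14 with normexp, 0.25 with quantile normalization, 0.24 with the authors' deposited table and 0.011 with the replicate block, and leaving out 1 array gave −0.067 to 0.028 for Ldha and −0.31 to 0.025 for Pfkp. The cause was not tested.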
